A study of Mus musculus with 6 samples.

Results

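The imprinted growth genes examined here were Igf2, H19, Grb10, Mest, Peg3, Peg10, Dlk1, Plagl1, Cdkn1c and Meg3, chosen by name. A gene was followed where an array entry was annotated to it and to no other gene. Of the 10 genes named, 9 had such an entry, among 19938 genes with an entry of their own, and each of the 9 had 1 entry. H19 was not analysed here. The values were linear intensities on 6 single-colour Affymetrix arrays of mouse RNA, here taken to log2.

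Embryonic fibroblasts (MEF) were grown from C57BL/6JJcl embryos at E11.5-13.5 and gave 1 array. Lymph node (LN) stroma gave 1 array and was sorted without culture from adult C57BL/6JJcl nodes as CD45- CD31- podoplanin+ VCAM-1+ cells. The other 4 arrays were of BLS4 and BLS12, established stromal lines from adult BALB/cA nodes, each left unstimulated or stimulated through the lymphotoxin β receptor (LTβR). The stimulus was an agonistic goat polyclonal antibody, used at 1 µg/ml over 2 days. MEF and both lines were cultured in the same medium. The labels name no control antibody, and each line and condition had a single array. The labels do not say how many animals or clones stood behind an array. MEF and LN stroma share a strain but differ in age, tissue and culture. LN stroma and the lines differ in strain and culture, and MEF and the lines differ in strain, age and tissue. BLS4 and BLS12 also differ from both in being established lines. Within each of these comparisons such differences cannot be told apart. The p-values measure only the spread between the 4 line arrays, which may be technical. With a single array per line and condition, that spread is how far the antibody difference departs between the lines. It is pooled in part over all genes and does not come from repeated arrays.

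An imprinted gene is transcribed mainly or only from the copy inherited from 1 parent, a choice marked by DNA methylation of CpG sites at control regions. Many paternally expressed genes, such as Igf2, Mest, Peg3, Dlk1 and Plagl1, promote fetal growth, and many maternally expressed ones, such as Cdkn1c and Grb10, restrain it. Levels of many of these genes in the mouse are high in fetal tissues and decline after birth. The arrays did not separate parental alleles.

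The promoters of the members whose levels differed most between these cells are shown because imprints are carried by CpG methylation. Whether a window overlaps an imprinting control region was not examined. Each window runs from 250 bases before to 50 bases after the start of a gene, 5′ to 3′ on the gene's strand, from RefSeq on GRCm38.p6, with every CpG in capitals. For a gene with several windows the window richest in CpG is shown.
Igf2 (chr7:142658755-142659054, minus strand): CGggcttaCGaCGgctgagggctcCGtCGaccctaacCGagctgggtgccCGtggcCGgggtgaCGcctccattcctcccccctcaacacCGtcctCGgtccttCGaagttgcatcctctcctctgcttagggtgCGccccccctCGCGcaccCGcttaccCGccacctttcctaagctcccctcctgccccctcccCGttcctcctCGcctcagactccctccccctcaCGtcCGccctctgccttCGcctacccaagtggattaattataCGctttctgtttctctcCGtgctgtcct
Grb10 (chr11:12037371-12037670, minus strand): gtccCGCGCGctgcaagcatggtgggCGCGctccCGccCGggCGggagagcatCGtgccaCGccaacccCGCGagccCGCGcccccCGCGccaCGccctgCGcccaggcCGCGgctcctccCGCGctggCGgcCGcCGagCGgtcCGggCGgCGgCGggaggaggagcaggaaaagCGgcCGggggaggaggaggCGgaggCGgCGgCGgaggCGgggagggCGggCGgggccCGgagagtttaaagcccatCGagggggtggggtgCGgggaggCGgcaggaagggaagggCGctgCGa
Mest (chr6:30737800-30738099, plus strand): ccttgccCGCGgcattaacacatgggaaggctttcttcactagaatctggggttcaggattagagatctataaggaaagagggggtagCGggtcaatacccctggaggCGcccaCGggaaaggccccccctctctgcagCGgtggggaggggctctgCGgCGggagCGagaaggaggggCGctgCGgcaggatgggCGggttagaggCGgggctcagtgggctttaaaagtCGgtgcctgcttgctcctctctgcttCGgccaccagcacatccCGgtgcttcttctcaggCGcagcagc
Plagl1 (chr10:13090582-13090881, plus strand): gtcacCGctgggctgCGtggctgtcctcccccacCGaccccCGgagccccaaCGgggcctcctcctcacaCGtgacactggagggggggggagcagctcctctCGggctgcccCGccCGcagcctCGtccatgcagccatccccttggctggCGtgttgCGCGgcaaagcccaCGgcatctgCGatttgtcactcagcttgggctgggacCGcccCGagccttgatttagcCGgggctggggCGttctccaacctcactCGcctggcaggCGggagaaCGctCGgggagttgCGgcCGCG
Meg3 (chr12:109540746-109541045, plus strand): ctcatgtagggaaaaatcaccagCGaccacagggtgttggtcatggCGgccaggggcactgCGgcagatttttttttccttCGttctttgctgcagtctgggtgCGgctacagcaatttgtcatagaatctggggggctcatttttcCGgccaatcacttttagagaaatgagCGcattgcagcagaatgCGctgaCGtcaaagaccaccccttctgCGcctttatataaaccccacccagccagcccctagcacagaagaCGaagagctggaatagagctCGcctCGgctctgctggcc
Peg3 (chr7:6730370-6730669, minus strand): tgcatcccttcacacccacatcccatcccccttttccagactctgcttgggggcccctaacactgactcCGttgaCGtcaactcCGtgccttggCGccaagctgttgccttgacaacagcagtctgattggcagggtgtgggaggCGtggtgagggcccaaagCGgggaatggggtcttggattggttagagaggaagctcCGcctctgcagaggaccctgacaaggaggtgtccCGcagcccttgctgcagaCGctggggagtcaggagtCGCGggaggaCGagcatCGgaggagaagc

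These 6 windows held from 13 CpG in Peg3 and Meg3 to 45 in Grb10, against a median of 7 over 32851 windows. Igf2, Grb10, Mest and Meg3 had further windows, and showing the richest is a choice not made among the 32851. Their windows not shown held 14, 7 and 2 CpG in Igf2, 9 in Grb10, 17 and 8 in Mest and 1 in Meg3. Of all windows, 1.93% held at least as many CpG as Grb10 and 37.9% at least as many as Peg3 and Meg3. Windows were found for 7 of the 9 members, 14 in all. The palindrome TGACGTCA, the cAMP response element, was in the windows of Meg3 and Peg3 and in 1.79% of all windows. The palindrome GGGGCCCC, within the GC-rich motif of the zinc-finger protein Plagl1, was in the Peg3 window alone among the 14 and in 1.08% of all windows. Both motifs were chosen after the sequences had been read, and a match is a description of these letters only.

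Array medians ran from 51.5 to 56.3. Of 12 stromal fibroblast markers with an entry, 12 lay at or above the array median in LN stroma, 10 in MEF and 10 or 11 in the lines. Ccl19 and Cxcl13, stromal chemokines of the node, were 5738 and 7223 in LN stroma, against 65.6 to 83.7 and 24.9 to 70.4 elsewhere. Il7, Vcam1, Col1a1, Col1a2 and Col3a1 were also highest in LN stroma, and Pdgfra and Pdgfrb were not. Other markers of the list went the other way. Pdpn (1174 against 1373 to 3271) and Ltbr (305 against 322 to 439) were lowest in LN stroma. Thy1 was 186 in LN stroma and 2020 in MEF. Lymphocyte markers lay at or above the median in 0 of 8 in MEF and LN stroma and in 0 or 1 of 8 in the lines. Myeloid markers did so in 6 of 7 in MEF and 2 of 7 on each other array, and their summed intensity was 2082 in MEF and 358 to 1021 elsewhere. Muscle and cartilage markers summed to 1712 in MEF, of which Acta1 was 1071, and to 576 to 979 elsewhere. Endothelial markers summed to 511 in MEF, 643 in LN stroma and 223 to 264 in the lines. At or above the median were 2 of 7 in MEF, 5 of 7 in LN stroma and 0 to 2 of 7 in the lines. In MEF these were Kdr (243) and Emcn (124), while Pecam1, Cdh5, Tek, Lyve1 and Prox1 were 21.6 to 36.2. In LN stroma Tek was 290 and Pecam1 86.8. The part of the myeloid, muscle and cartilage, and endothelial markers in the members' differences from MEF was not tested.

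All 9 members had their highest level in MEF, as did 21.0% of the 13166 genes with at least 1 array at or above its median. In 7 of the 9 LN stroma came next, above all 4 line arrays, an order held by 4.28% of those genes. The exceptions were Peg10 and Dlk1. MEF lay at least 4-fold above all 4 line arrays in 5 members, Igf2, Grb10, Mest, Plagl1 and Meg3, and in 1.01% of all genes. Grb10, Mest, Plagl1 and Meg3 reached the array median in MEF and LN stroma alone. In Igf2 LN stroma lay only 0.05 log2 units above unstimulated BLS12. The counts of 9, 7 and 5 therefore support nothing about the members as a group. In bulk RNA such as this, fewer cells of a type and less RNA per cell cannot be told apart.

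**Figure D1:**
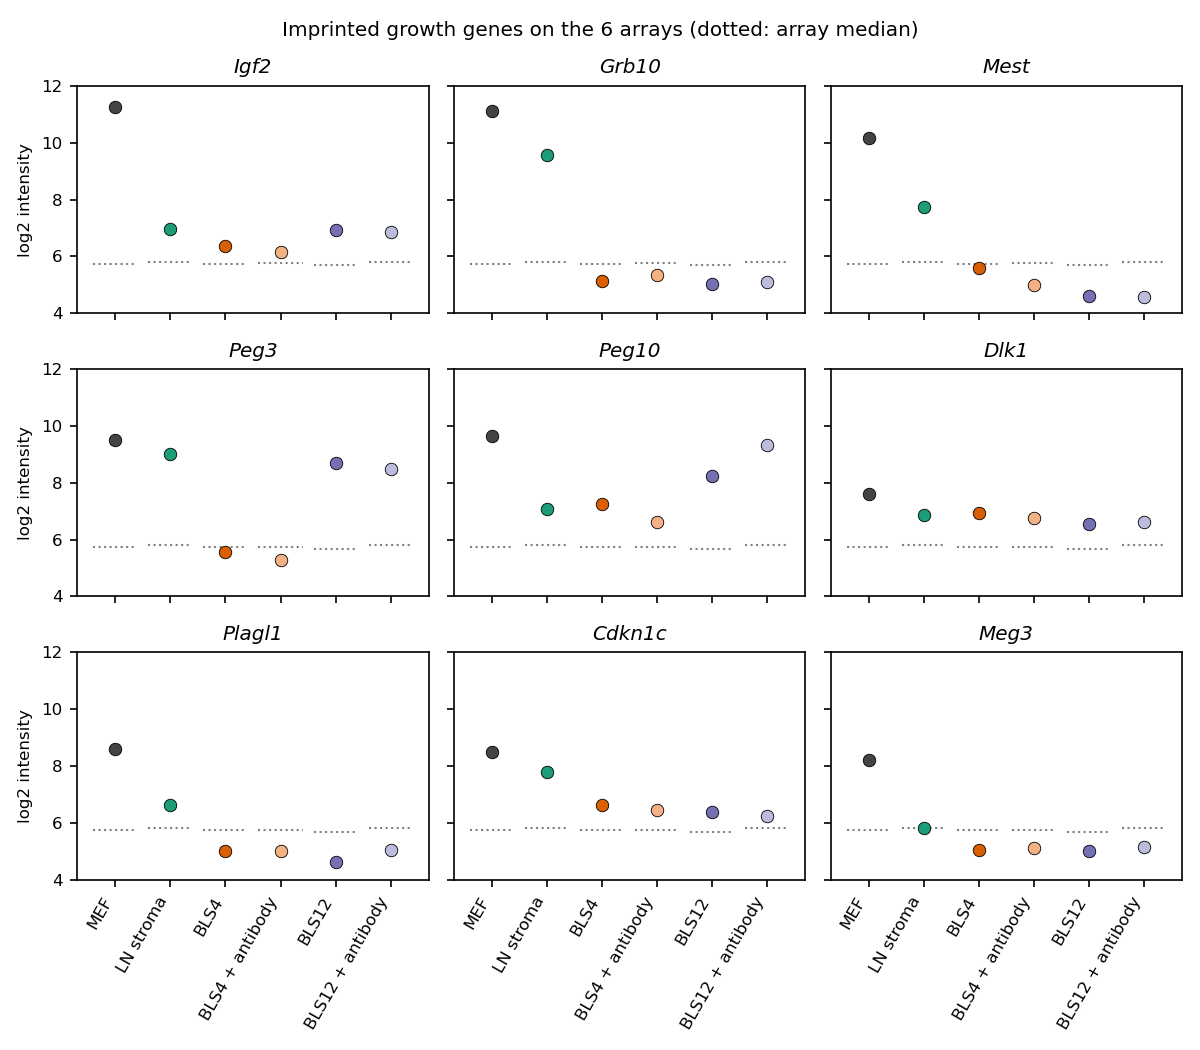
Log2 intensity (vertical axis) of each imprinted growth gene on the 6 arrays (horizontal axis), 1 point per array, with the array's median as a dotted line. MEF is the highest point in all 9 panels, and the line arrays of Grb10, Mest, Plagl1 and Meg3 lie below the array median.

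Igf2, the fetal insulin-like growth factor ligand, had an intensity of 2439 in MEF, 126 in LN stroma, 82.2 in BLS4, 72.0 in BLS4 with antibody, 121 in BLS12 and 116 in BLS12 with antibody. MEF stood alone, and LN stroma and BLS12 lay close together. LN stroma was 19.4-fold below MEF, BLS4 29.7-fold and BLS12 20.1-fold. Dlk1, a membrane ligand with epidermal growth factor repeats that holds back adipocyte differentiation, varied least. Its intensity was 195 in MEF, 117 in LN stroma, 122 and 107 in BLS4 without and with antibody, and 92.7 and 99.4 in BLS12. Apart from MEF, no neighbours in this order were further apart than 0.21 log2 units. That is the spread of a difference between 2 arrays in the model of the cell lines. The model held no MEF or LN stroma array.

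Grb10, an adaptor that dampens insulin and insulin-like growth factor receptor signalling, had an intensity of 2201 in MEF and 759 in LN stroma. It was 35.0 and 40.4 in BLS4 without and with antibody, and 33.0 and 34.4 in BLS12. Its fold difference from MEF was 2.90 in LN stroma, 62.9 in BLS4 and 66.6 in BLS12. The line values lay below the array median and have no detection call, so the folds of the lines are approximate. The lines did not overlap with the primary cells, and the 4 line arrays differed from their neighbours by less than the spread given above.

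Plagl1, a zinc-finger transcription factor that regulates other imprinted genes, had an intensity of 387 in MEF, 98.6 in LN stroma, 32.3 and 32.0 in BLS4 without and with antibody, and 24.5 and 33.0 in BLS12. It stepped down from MEF to LN stroma and again to the lines. Peg3, another zinc-finger protein, split the lines. Its intensity was 729 in MEF, 521 in LN stroma, 416 and 358 in BLS12 without and with antibody, and 47.0 and 39.3 in BLS4. BLS12 lay near the primary cells and BLS4 lay below its array median.

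Cdkn1c, which encodes the cyclin-dependent kinase inhibitor p57, had an intensity of 358 in MEF, 222 in LN stroma, 99.9 and 87.4 in BLS4 without and with antibody, and 82.6 and 76.1 in BLS12. Like Plagl1 it stepped down from MEF to LN stroma and again to the lines, by smaller steps. Mest, an α/β-hydrolase-fold protein, had an intensity of 1153 in MEF, 214 in LN stroma, 48.4 and 31.6 in BLS4 without and with antibody, and 24.4 and 23.7 in BLS12. Meg3, a maternally expressed noncoding RNA, had an intensity of 296 in MEF, 57.1 in LN stroma, 32.9 and 34.4 in BLS4, and 32.3 and 35.3 in BLS12. For Meg3 the 4 line arrays were within the spread of each other, and LN stroma was only just above its array median of 55.8.

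Peg10, derived from a retrotransposon and required for placental development, followed a different order. Its intensity was 794 in MEF, 646 in BLS12 with antibody, 304 in unstimulated BLS12, 153 in unstimulated BLS4, 134 in LN stroma and 99.6 in BLS4 with antibody. Antibody-treated BLS12 was 0.30 log2 units below MEF, the smallest step below MEF among the members. LN stroma lay among the BLS4 arrays.

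Across the 6 arrays the 36 pairs of members had a median Pearson's r of 0.84, from 0.27 to 0.99, with 14 pairs over 0.9. The 4 line arrays share their cells in pairs and MEF was high in each gene, so these are descriptions. Plagl1 had the highest median r with the other members, at 0.94, and Peg10 the lowest, at 0.41.

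Fresh LN stroma against MEF compared adult node cells with embryonic fibroblasts of one strain. With 1 array a group there is no test, and a difference was counted from 4-fold. Igf2 (-4.28 log2 units), Peg10 (-2.57), Mest (-2.43) and Meg3 (-2.37) were counted as lower in LN stroma, 4 of 9 members, against 2.93% of 12613 genes. No member was counted as higher, against 4.64%. Plagl1 (-1.97) lay just short of 4-fold, and Grb10 (-1.54), Dlk1 (-0.74), Cdkn1c (-0.69) and Peg3 (-0.49) differed less. The median over the 9 members was -1.97, and over all genes -0.11.

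Unstimulated lines against MEF compared cultured adult stroma of BALB/cA with cultured embryonic cells of C57BL/6JJcl. Of the 9 members, 5 were at least 4-fold lower in both lines, against 1.14% of 12676 genes, and none higher, against 0.308%. They were Grb10 (-5.98 in BLS4 and -6.06 in BLS12), Mest (-4.57 and -5.56), Igf2 (-4.89 and -4.33), Plagl1 (-3.58 and -3.98) and Meg3 (-3.17 and -3.19). Grb10, Mest, Plagl1 and Meg3 entered this comparison through MEF alone, the lines being below the array median, which favours a difference. The count of 5 therefore supports nothing about the members as a group. Peg3 was past 4-fold in BLS4 alone (-3.96 and -0.81), as was Peg10 (-2.37 and -1.38), and Cdkn1c in BLS12 alone (-1.84 and -2.12). The median over the 9 members of the mean of both lines was -3.18, and over all genes 0.01.

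**Figure D2:**
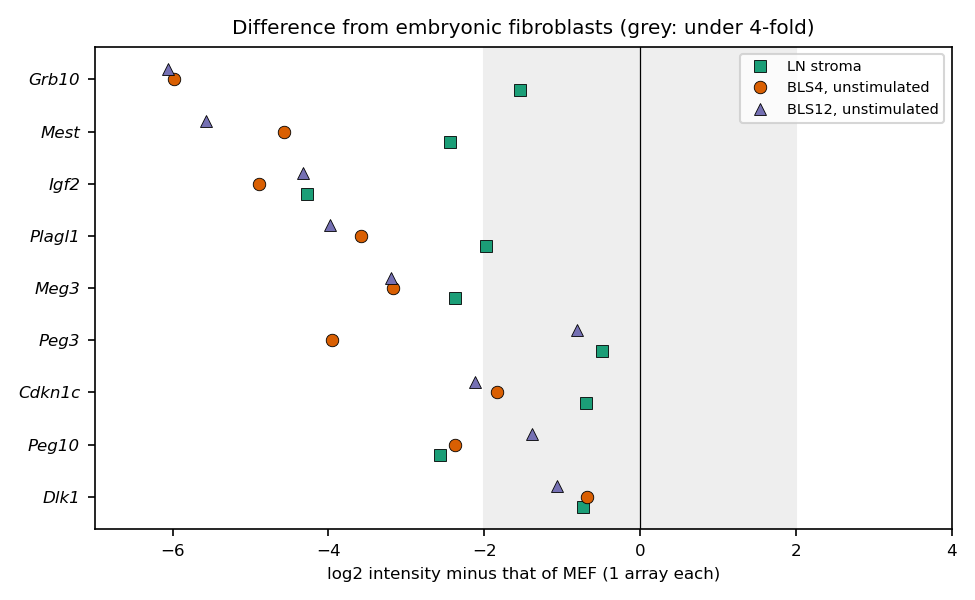
Log2 intensity minus that of MEF (horizontal axis) for LN stroma and both unstimulated lines, 1 array each, for the 9 members (vertical axis), with differences under 4-fold in grey. Every point lies below 0, and Grb10 in the lines lies farthest, at -5.98 and -6.06.

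Fresh LN stroma against the unstimulated lines compared uncultured C57BL/6JJcl node cells with node lines of BALB/cA origin. Grb10 was higher in LN stroma by 4.44 log2 units over BLS4 and 4.52 over BLS12, and Mest by 2.14 and 3.13. These 2 were at least 4-fold higher than both lines, against 3.52% of 12827 genes, and no member was as far below both, against 0.569%. Plagl1 was higher by 1.61 and 2.01, Cdkn1c by 1.15 and 1.43, and Meg3 by 0.80 and 0.82. Peg3 was higher by 3.47 over BLS4 and by 0.32 over BLS12. Igf2 was higher by 0.61 over BLS4 and by 0.05 over BLS12, and Peg10 differed by -0.19 and -1.18. Dlk1 differed by -0.06 from BLS4 and 0.33 from BLS12. The lines' levels of Grb10, Mest, Plagl1 and Meg3 were below the array medians, and the table has no detection calls, so the sizes of these differences are approximate. Grb10 and Mest entered this comparison through LN stroma alone, so the count of 2 supports nothing about the members as a group.

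BLS12 against BLS4 asked how the lines differ from each other, in a limma model of line and antibody over the 4 line arrays. Genes were tested where at least 2 of those 4 arrays lay at or above the array median, which admitted Igf2, Peg3, Peg10, Dlk1 and Cdkn1c. Of these 5 members 3 were higher in BLS12 and 0 lower, where 23.6% of 11988 genes were called, 12.2% higher and 11.4% lower. Peg3 passed that filter through its BLS12 arrays alone, which favours a difference, so the count of 3 supports nothing about the members as a group. For the same reason the difference of Peg3 is given as a value. It was higher by 3.17 log2 units, 8.85-fold in unstimulated cells and 9.12-fold with antibody. Peg10 was higher by 1.84 (SE 0.386, limma adjusted p = 0.0242), 1.99-fold in unstimulated cells and 6.48-fold with antibody. Igf2 was higher by 0.63 (SE 0.140, limma adjusted p = 0.0290), 1.47-fold and 1.62-fold. The call on Peg10 was lost after quantile normalization (limma adjusted p = 0.0511), and the calls on Peg10 and Igf2 were lost without the antibody term (limma adjusted p = 0.0571 and 0.0519). Dlk1 (-0.25, limma adjusted p = 0.274) and Cdkn1c (-0.24, limma adjusted p = 0.267) did not pass.

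Of the 4 members below the filter, Mest was lower in BLS12 by 0.99 log2 units in unstimulated cells and by 0.41 with antibody, at levels under the array median. The line difference of Grb10 was -0.08 and -0.23, that of Plagl1 -0.40 and 0.04, and that of Meg3 -0.03 and 0.04. Some epithelial and mesothelial markers also differed between the lines. The summed intensity over 7 genes was 1843 and 944 in BLS12 without and with antibody, and 454 and 431 in BLS4. Most of that came from Upk3b (1150 and 390 in BLS12, 88.5 and 72.4 in BLS4) and Msln (347 and 187, 72.2 and 64.8). Krt8, Krt18 and Wt1 differed less in the same direction, and Epcam and Cdh1 had no constant direction. The part of these markers in the line differences was not tested.

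The antibody comparison asked what differed with the antibody on average over both lines. A difference in 1 line alone, or of opposite sign in the lines, is averaged in that model. No member passed, 0 of 5 tested, where 0.275% of 11988 genes did, 0.200% higher and 0.0751% lower with antibody. At an unadjusted p under 0.05 the count was also 0 of 5 in limma, and 0 of 5 differed at least 2-fold the same way in both lines, against 0.667% of genes. The fitted differences were 0.23 for Peg10 (SE 0.386), -0.24 for Peg3 (SE 0.137), -0.16 for Cdkn1c (SE 0.138), -0.12 for Igf2 (SE 0.140) and -0.04 for Dlk1 (SE 0.149). Their limma adjusted p-values ran from 0.576 to 0.946. The median over the 5 was -0.12, and over all genes tested -0.02.

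The values of Peg10 differed in opposite directions. Its intensity in BLS12 went from 304 to 646 with antibody, a ratio of 2.12, and in BLS4 from 153 to 99.6, a ratio of 0.651. Of all genes tested, 1.15% differed at least 2-fold in 1 line and had the opposite sign in the other. A pattern like that of Peg10, at least 2-fold higher in BLS12 and at least 0.5 log2 units lower in BLS4, was held by 0.0751%, with limits chosen after its values were seen. The myeloid marker Lyz2 differed in the same directions on these arrays, from 225 to 791 in BLS12 and from 373 to 230 in BLS4. The summed myeloid markers, which include Lyz2, went from 424 to 1021 in BLS12 and from 630 to 602 in BLS4. Of the 7 markers only Lyz2 and Cd68 reached the array median in the lines. Cd68 was higher with antibody in both, from 66.4 to 76.6 in BLS12 and from 107 to 218 in BLS4. The part of the myeloid markers in the values of Peg10 was not tested. There is 1 array for each of the 4 values of Peg10, and the difference between the lines was not tested. Mest went from 48.4 to 31.6 in BLS4 and from 24.4 to 23.7 in BLS12. Grb10 (0.21 in BLS4 and 0.06 in BLS12, log2) and Meg3 (0.06 and 0.13) had small positive differences, at levels below the array median.

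**Figure D3:**
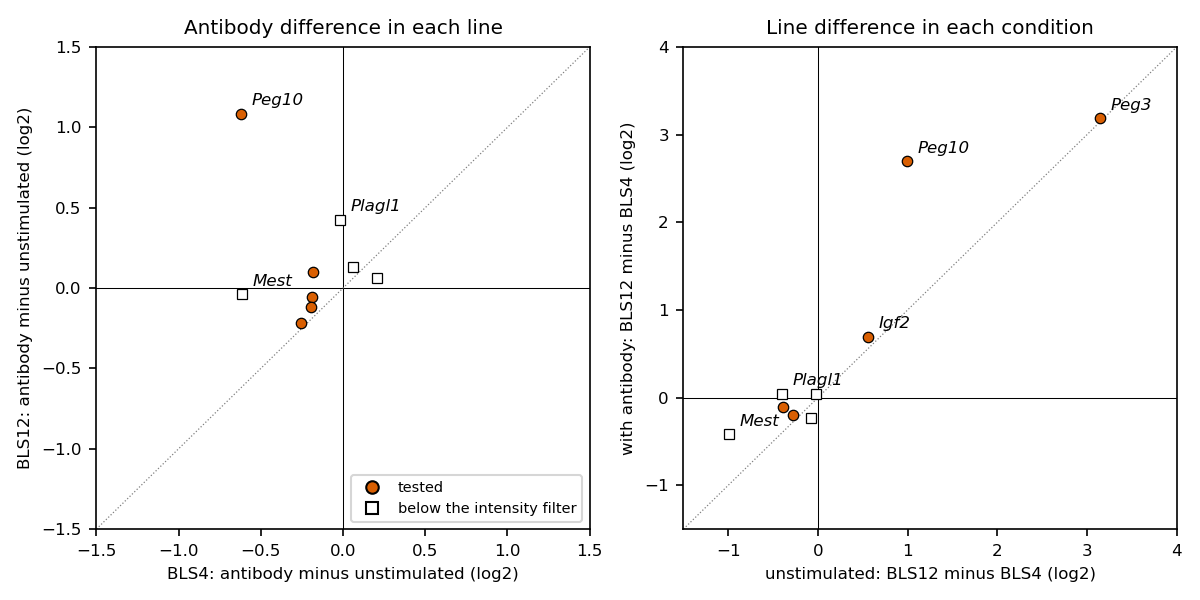
Left, the log2 antibody difference of each member in BLS4 (horizontal) and BLS12 (vertical). Right, the log2 BLS12 minus BLS4 difference without (horizontal) and with antibody (vertical). Each point is 1 gene, filled where tested, and the dotted line marks equal values. Peg10 lies off the dotted line in both panels, and Peg3 lies close to it at 3.15 and 3.19.

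Imprinted neighbours of the members, taken within 3 megabases on the same chromosome of GRCm38, are described here by a few that were chosen after their values were seen. Rian, a noncoding RNA from the same cluster as Meg3, was also highest in MEF, with an intensity of 65.2 in MEF, 26.2 in LN stroma and 14.6 to 19.1 in the lines. In that cluster Dio3, the thyroid hormone-inactivating deiodinase, was instead high in BLS4. Its intensity was 998 in unstimulated BLS4, 235 in BLS4 with antibody, and between 32.7 and 59.9 on the other 4 arrays, a BLS12 minus BLS4 difference of -3.82. Dio3 passed the filter on dim genes through its BLS4 arrays alone, so its difference is given as a value. Rtl1 lay between 54.1 and 71.1 throughout. Next to Grb10, Ddc, an enzyme of monoamine synthesis, had an intensity of 249 and 92.4 in BLS12 without and with antibody against 33.9 to 44.5 elsewhere, a BLS12 minus BLS4 difference of 1.90. It passed the filter through its BLS12 arrays alone. Next to Peg3, Zim1 was 71.9 in LN stroma, 42.0 in MEF and 18.4 to 21.6 in the lines. Near Igf2 and Cdkn1c, Phlda2 (54.5 to 67.4) and Kcnq1 (53.5 to 61.6) stayed close to the array medians on all 6 arrays.

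**Figure D4:**
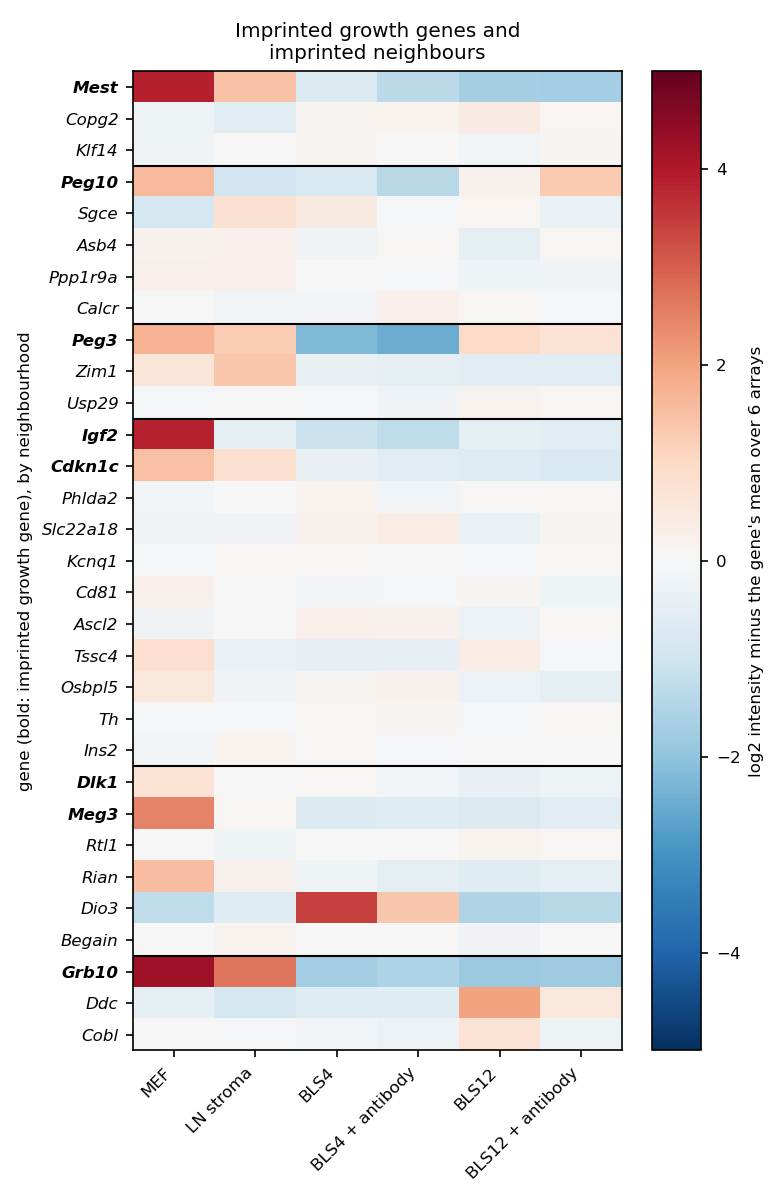
Log2 intensity of members (bold) and imprinted neighbours, minus each gene's mean over the 6 arrays (colour), by array (horizontal) and neighbourhood (rows between lines). Mest, Igf2, Meg3, Rian and Grb10 are highest in MEF, and Dio3 in unstimulated BLS4.

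Over 54 further imprinted genes, 43 had an entry of their own. In LN stroma against MEF 28 were kept, of which 1 was at least 4-fold higher (Nap1l5, by 2.68 log2 units) and 1 lower (Slc38a4, by -3.85), against 4.64% and 2.93% of all genes, with a median of -0.19. In the lines against MEF 29 were kept, with 0 higher and 2 lower, Slc38a4 (-4.68 in BLS4 and -4.99 in BLS12), an amino acid transporter, and Gatm (-2.40 and -2.17), an enzyme of creatine synthesis, against 0.308% and 1.14% of all genes, and a median of 0.01. In LN stroma against the lines 1 of 29 was higher (Nap1l5) and 0 lower, against 3.52% and 0.569%. Of 25 tested in the line model none passed for the antibody, where 0.275% of all genes did. Between the lines 2 were higher in BLS12 (Ddc and Mcts2), against 12.2% of all genes. In BLS4 5 were higher (Dio3, Igf2r, Ndn, Peg12 and Osbpl5), against 11.4%. Ddc and Dio3 entered these counts only through the line where they were high. Likewise, Slc38a4 and Gatm entered the lines against MEF through MEF alone. Nap1l5 entered both of its counts through LN stroma alone. Igf2r, which clears Igf2 by sending it to lysosomes, had an intensity of 2588 in MEF, 897 in LN stroma, 1345 and 1292 in BLS4 without and with antibody, and 572 and 683 in BLS12, a BLS12 minus BLS4 difference of -1.08 (SE 0.152, limma adjusted p = 0.00833).

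Other genes of the insulin-like growth factor axis numbered 16 on the list and 15 with an entry. In LN stroma against MEF, 5 of 15 were at least 4-fold higher and 3 lower, against 4.64% and 2.93% of all genes. Igf1, Igfbp3, Igfbp4, Igfbp5 and Igfbp6 were the higher ones, and Igfbp2, Igf2bp1 and Igf2bp3 the lower ones. Of these, Igf2bp1 and Igf2bp3 entered the comparison through MEF alone. In the lines against MEF 0 were higher and 3 lower, against 0.308% and 1.14%. Igfbp2, which binds these ligands in the extracellular space, was also far lower outside MEF, with an intensity of 4440 in MEF, 223 in LN stroma and 102 to 152 in the lines. Igf2bp1, an RNA-binding protein of fetal tissues that binds Igf2 transcripts, was 445 in MEF, 35.2 in LN stroma and 80.0 to 107 in the lines. In LN stroma against the lines 3 of 14 were higher (Irs2, Igfbp3 and Igfbp5) and 1 lower (Igf2bp3), against 3.52% and 0.569% of all genes. Igf2bp3 entered that comparison through the lines alone, so its count supports nothing about the list. Igfbp5 was 5.62 and 5.42 log2 units higher in LN stroma than in BLS4 and BLS12. None of the 15 passed for the antibody in limma, where 0.275% of all genes did. Between the lines 1 was higher in BLS12 (Igfbp4) and 3 in BLS4 (Igf2r, Igfbp6 and Igfbp7), against 12.2% and 11.4% of all genes.

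Genes that set, copy, protect or remove DNA methylation, or bind imprinting control regions, numbered 16, of which 14 were kept. In LN stroma 3 were at least 4-fold below MEF and 0 above, against 2.93% and 4.64% of all genes: Hells (-3.13), a chromatin remodeller, Uhrf1 (-2.46), which brings Dnmt1 to replicated DNA, and Zfp57 (-2.34), which binds methylated imprinting control regions. Those 3 entered the comparison through MEF alone, being below the array median in LN stroma. In the lines against MEF 0 of 14 were counted in either direction, against 0.308% higher and 1.14% lower over all genes. Between the lines 4 of 14 were higher in BLS12 and 0 in BLS4, against 12.2% and 11.4% of all genes. Zfp57 was higher by 2.16 (SE 0.137, limma adjusted p = 0.000896), with an intensity of 404 and 412 in BLS12 against 91.8 and 91.2 in BLS4, and the others were Hells (2.04), Uhrf1 (1.35) and Dnmt1 (0.79). Of 5 other cyclin-dependent kinase inhibitors with an entry, 2 were at least 4-fold lower in LN stroma than MEF, against 2.93% of all genes. They were Cdkn2b (-2.83) and Cdkn2a (-2.53). In the lines against MEF 0 of the 5 were counted, against the same 0.308% and 1.14% of all genes.

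MicroRNAs made from within Mest and Igf2 had entries of their own, looked up after the members' values were known. Their mature RNAs, from RefSeq on GRCm38.p6, are shown with the seed (bases 2 to 8) in capitals, and the 4 seeds all differ.
mmu-miR-335-5p (chr6:30741314-30741336, plus strand): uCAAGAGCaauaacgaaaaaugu
mmu-miR-335-3p (chr6:30741354-30741375, plus strand): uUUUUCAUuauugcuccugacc
mmu-miR-483-3p (chr7:142654932-142654952, minus strand): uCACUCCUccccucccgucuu
mmu-miR-483-5p (chr7:142654968-142654989, minus strand): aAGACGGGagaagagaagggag
Whether these entries measure the mature RNAs was not examined. The Mir335 entry lay between 27.0 and 33.5 on the 6 arrays, a ratio of 1.24, whereas Mest ran from 23.7 to 1153. That entry was below the array median on each array and has no detection call. Its values therefore cannot show whether the microRNA followed Mest. The Mir483 entry lay between 120 and 163, a ratio of 1.36, whereas Igf2 ran from 72.0 to 2439. The lowest Mir483 value, 120 in MEF, was close to the 129 of unstimulated BLS12, so nothing is read from that order.

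By the rule that compares patterns over the 6 arrays among 1867 genes that varied at least 4-fold, the genes most like Grb10 were Fbn2, which encodes a fibrillin of fetal microfibrils (r = 0.999), Atp9a (r = 0.999) and Adgrl3 (r = 0.998). Those most like Igf2 were Lipg, an endothelial lipase (r = 0.999), Slc35f1 (r = 0.997) and Tspan2 (r = 0.996). Those most like Mest were Dkk2, a secreted Wnt modulator (r = 0.991), Aldh1a2, which makes retinoic acid (r = 0.989), and Adgrf5 (r = 0.988). With 6 arrays, 4 of them from 2 lines, these values are descriptions.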

How the data were processed

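The authors deposited 1 linear intensity per array entry and sample, made with Affymetrix Expression Console 1.1 per the submitters' processing notes. The summary method, the normalization and the genome build are not given in the sources used here. Of 35557 entries 21789 named 1 gene, 1621 several and 12147 none, by the platform annotation. Only the first kind was used, and of several entries for a gene the brightest (highest mean log2) was taken. Log2 was taken with no floor, the lowest intensity being 3.55.

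Line and antibody effects came from limma 3.58.1 in R 4.3.3 (lmFit, eBayes, additive model, 11988 genes, Benjamini-Hochberg over all, two-sided, threshold 0.05). With 4 arrays, 1 residual degree of freedom remained, and limma's prior SD was 0.151. Each line was its own control, and the line pairs the samples. The fit was tested on simulated data, where it missed most of the smallest changes made and the false share of its calls was above the threshold. Comparisons with MEF or LN stroma had 1 array, no test, and a threshold of 4-fold over genes that reached the array median on at least 1 of the arrays compared. The number of arrays limits the precision. The members and lists were chosen with earlier results of these data known. All members were named, with up to 5 genes per list by size of difference and 3 genes of like pattern for each of the 3 members of widest range. Alternatives were median centring, quantile normalization, no filter, entry means, other model terms, other folds and leaving out a line.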

Additional observations from a re-analysis of the deposited data

Results flagged for a closer look

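Peg10 had a higher value with antibody in BLS12 and a lower one in BLS4, and its antibody difference was 1.71 log2 units larger in BLS12, with 1 array per value and no test. Plagl1 (0.44) and Dlk1 (0.28) also had antibody differences of opposite sign in the lines, Plagl1 at levels below the array median, and the difference between the lines was tested for neither. The line difference of Plagl1 had opposite signs in unstimulated and treated cells, 0.44 apart, as did that of Meg3, 0.0652 apart, both untested and, for Meg3, under the spread of 0.21.

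A signal outside the comparisons above was in an entry annotated jointly to Mir675, a microRNA made from H19, and Supt6. Its intensity was 672 in MEF and 33.5 to 47.3 on the other 5 arrays, 14.2-fold above the next. The entry names several genes and was assigned to none.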

How the results depend on the processing

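The table has no detection calls and no repeated array of any line and condition, which limits every result. Members called for the antibody stayed at 0 under each alternative that gave a test. All genes called for the antibody numbered 33, and 98 with each array centred, 6 after quantile normalization, 54 without the filter and 0 with no replicate block, that is without pairing by line. The 33 were all among the 98 and the 54, and the 6 were all among the 33. The cause was not tested. Between the lines 3 members were called, 4 without the filter (the added one being Mest), 2 after quantile normalization and 1 (Peg3) without the antibody term, where all genes fell from 2835 to 1428.

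At 1.5-fold in both lines the antibody gave 303 genes in place of 80. Leaving out a line left 188 to 447 genes and 0 to 1 members past 2-fold, the 1 being Peg10 without BLS4. The antibody difference of the remaining line ran from -0.62 to 1.09 in Peg10 and from -0.18 to 0.10 in Dlk1. Against MEF, members counted as lower in LN stroma or the lines stayed within 1.5 times the main count under every alternative run. At 2-fold in place of 4-fold, all genes in LN stroma against MEF numbered 1292 higher and 1523 lower, in the lines against MEF 250 and 488, and in LN stroma against the lines 902 and 545, with 4 members higher. Leaving out a line gave 142 to 178 genes higher and 243 to 285 lower in the lines against MEF, and 185 to 341 lower in LN stroma against the lines. With antibody-treated lines 64 genes were higher than MEF.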
